A study of Homo sapiens with 24 samples.

Results

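The genes described here encode the machinery that writes, reads and erases methylation of histone H3 lysine 4 (H3K4) and methylation and acetylation of lysine 27 (H3K27). There were 42 of them among 19856 protein-coding genes with a canonical transcription start site (TSS): 12 H3K4 writers and their complex subunits, 3 H3K4 erasers, 8 H3K4 readers including PHF13, 8 genes of Polycomb repressive complex 2 (PRC2), 8 of Polycomb repressive complex 1 (PRC1), and the group of KDM6B, EP300 and CREBBP. The rule names them by the function of their products. For each gene the window reached 5 kb either side of the TSS, the same length for every gene, and the measure was how many of these bp lay under peaks.

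The peaks came from ChIP-seq of 3 marks in PANC-1, a human pancreatic ductal carcinoma cell line: H3K4me3, typical of promoters, H3K27ac, found at promoters and enhancers in use, and H3K27me3, the mark that PRC2 deposits. Cells received control siRNA (siControl), control siRNA and then TGFβ (siControl+TGFβ), or siRNA against PHF13 and then TGFβ (siPHF13+TGFβ), with TGFβ at 10 ng/ml for 48 h. Each group and mark had 2 libraries, giving 18 peak lists, and no source says whether the 2 came from separate cultures, so every test measures only the spread between these libraries, which may be technical. The design asks how TGFβ changes the marks (siControl+TGFβ against siControl) and how depletion of PHF13 changes them under TGFβ (siPHF13+TGFβ against siControl+TGFβ). Both comparisons use the same siControl+TGFβ libraries. Values given as without TGFβ, with TGFβ, and with TGFβ and siPHF13 are those of siControl, siControl+TGFβ and siPHF13+TGFβ, replicate 1 first.

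H3K4 methylation is written by the KMT2 and SETD1 enzymes, which share a core of WDR5, RBBP5, ASH2L and DPY30, and it is removed by the KDM1 and KDM5 demethylases. PHD-finger proteins such as the ING family and PHF13 bind the methylated tail. PRC2 methylates H3K27 through EZH1 or EZH2, and the chromodomain proteins of PRC1 bind the product, while RING1 and RNF2 ubiquitinate histone H2A. KDM6B removes H3K27 methylation, and EP300 and CREBBP acetylate the same residue, so that one H3 tail cannot carry both.

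The group of a library was taken from its label. Peak names within the lists used other codes than those labels: the 6 lists labelled siControl carried the code NC, the 6 labelled siControl+TGFβ carried 3AT and the 6 labelled siPHF13+TGFβ carried NCT. In the study's own abbreviations NC stands for siControl and NCT for siControl with TGFβ, so the code NCT goes against the label siPHF13+TGFβ, while 3AT is not explained in the sources used here. If those 2 groups were exchanged, every direction given for depletion would be reversed, and values given for TGFβ would set siPHF13+TGFβ against siControl. All directions below hold only if the labels are right. List sizes also differed: H3K4me3 lists held 27869 to 39202 peaks, H3K27ac lists 6004 to 36104 and H3K27me3 lists 59573 to 165717, and the shortest list of each mark was the library labelled siPHF13+TGFβ replicate 1. No read count stands in any list, and the depth behind the peaks is unknown. The keratin genes KRT8 and KRT18, markers of epithelial cells, carried H3K4me3 and H3K27ac in all 6 lists. KRT19 carried H3K4me3 in all 6 and H3K27ac in 5, and H3K27me3 was in 0 lists at each of these keratins. The epithelial genes EPCAM and CDH1 carried H3K4me3 in all 6 and H3K27ac in 0, with H3K27me3 in 6 at EPCAM and 5 at CDH1. Of the acinar marker genes, CELA3A had H3K27ac in 5 lists, and PRSS1 and CPA1 in 0.

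Sequences are shown for 2 promoters that the results return to: PHF13, the siRNA target, and EED, which had a peak of each of the 3 marks within 5 kb of its TSS in every library. Each promoter run covers 270 bases before the TSS and 30 from it, read 5′ to 3′ on the gene's strand from hg19, with CpG dinucleotides in capitals. The other run is the stretch upstream of CBX2, which had more H3K27me3 than any other of the 42 genes, that lay under both H3K4me3 and H3K27me3 peaks in each of the 5 lists in which the marks met on that side.
PHF13 promoter, chr1:6673521-6673820, plus strand: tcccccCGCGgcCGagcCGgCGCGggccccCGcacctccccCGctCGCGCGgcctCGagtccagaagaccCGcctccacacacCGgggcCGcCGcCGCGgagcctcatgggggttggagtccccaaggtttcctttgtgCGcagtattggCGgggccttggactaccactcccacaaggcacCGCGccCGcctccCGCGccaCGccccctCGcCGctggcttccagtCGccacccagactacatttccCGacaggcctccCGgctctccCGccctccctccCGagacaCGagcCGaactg
CBX2 upstream stretch under both marks, chr17:77751144-77751296, plus strand: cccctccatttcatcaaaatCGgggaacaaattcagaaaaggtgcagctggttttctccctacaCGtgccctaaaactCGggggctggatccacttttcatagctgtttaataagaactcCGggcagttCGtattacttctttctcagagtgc
EED promoter, chr11:85955525-85955824, plus strand: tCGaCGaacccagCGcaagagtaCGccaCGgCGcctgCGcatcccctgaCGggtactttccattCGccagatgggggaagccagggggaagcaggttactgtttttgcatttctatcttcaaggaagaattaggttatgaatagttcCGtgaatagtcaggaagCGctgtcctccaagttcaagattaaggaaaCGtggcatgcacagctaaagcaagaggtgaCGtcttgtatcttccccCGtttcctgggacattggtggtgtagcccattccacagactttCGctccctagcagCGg
The PHF13 run held 35 CpGs and EED held 16, while the shared stretch of 153 bases held 5. EED and RBBP5 were the lowest of the 42 promoters, at 16 CpGs each. Over the 42 promoters the median was 31 CpGs, with an observed-to-expected ratio of 0.96, against 22 and 0.765 over 19855 coding promoters and 27 and 0.843 over the 14152 with H3K4me3 in all 6 lists.

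Short motifs were counted in the same 300 bases on both strands, as a description. CCAAT stood in 12 of 42 promoters and in 36.9% of all coding promoters, and EZH2, SUZ12, EED, JARID2 and PHF19 of PRC2 were among the 12, as were CBX7 and CBX8 of PRC1 and PHF13. GCCATNTT stood in 10 of 42 and in 7.15% of all, including KMT2A, KMT2B, CXXC1, RNF2, BMI1 and PCGF2. TTTGGCGC was found in ING3 and EZH2 and in 0.851% of all promoters. CCGGAAG occurred in KDM5A, ING4 and ING5 (14.2% of all) and TATAAA in JARID2 (10.1%). TGANTCA, TTTCGCGC and GTCTAGAC were in 0 of the 42 windows and in 5.61%, 0.735% and 0.206% of all promoters. Over coding promoters with H3K4me3 in all 6 lists, as at all 42 genes, the shares were 36.5% for CCAAT, 8.61% for GCCATNTT and 1.06% for TTTGGCGC. They were 18.7% for CCGGAAG, 5.67% for TATAAA, 3.92% for TGANTCA, 0.975% for TTTCGCGC and 0.148% for GTCTAGAC.

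All 42 genes carried an H3K4me3 peak in every one of the 6 lists, a state shared by 71.3% of coding genes. H3K27ac was present in all 6 lists at 14 of the 42 (19.9% of coding genes), and H3K27me3 in all 6 at 5 (19.5%). Those 14 were KMT2A, KMT2B, KMT2D, SETD1A, SETD1B and RBBP5 of the writers, the demethylase KDM1A, the reader ING5, EZH2, SUZ12, EED and PHF19 of PRC2, RING1 of PRC1, and EP300. The 5 with H3K27me3 in every list were KDM5B, EED, CBX2, CBX8 and KDM6B, and 27 genes had none in any list. Among coding genes that likewise carried H3K4me3 in all 6 lists, 27.9% had H3K27ac in all 6 and 17% had H3K27me3 in all 6, while H3K27me3 in at least 1 list stood at 15 of the 42 genes and at 36.9% of such genes.

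**Figure D1:**
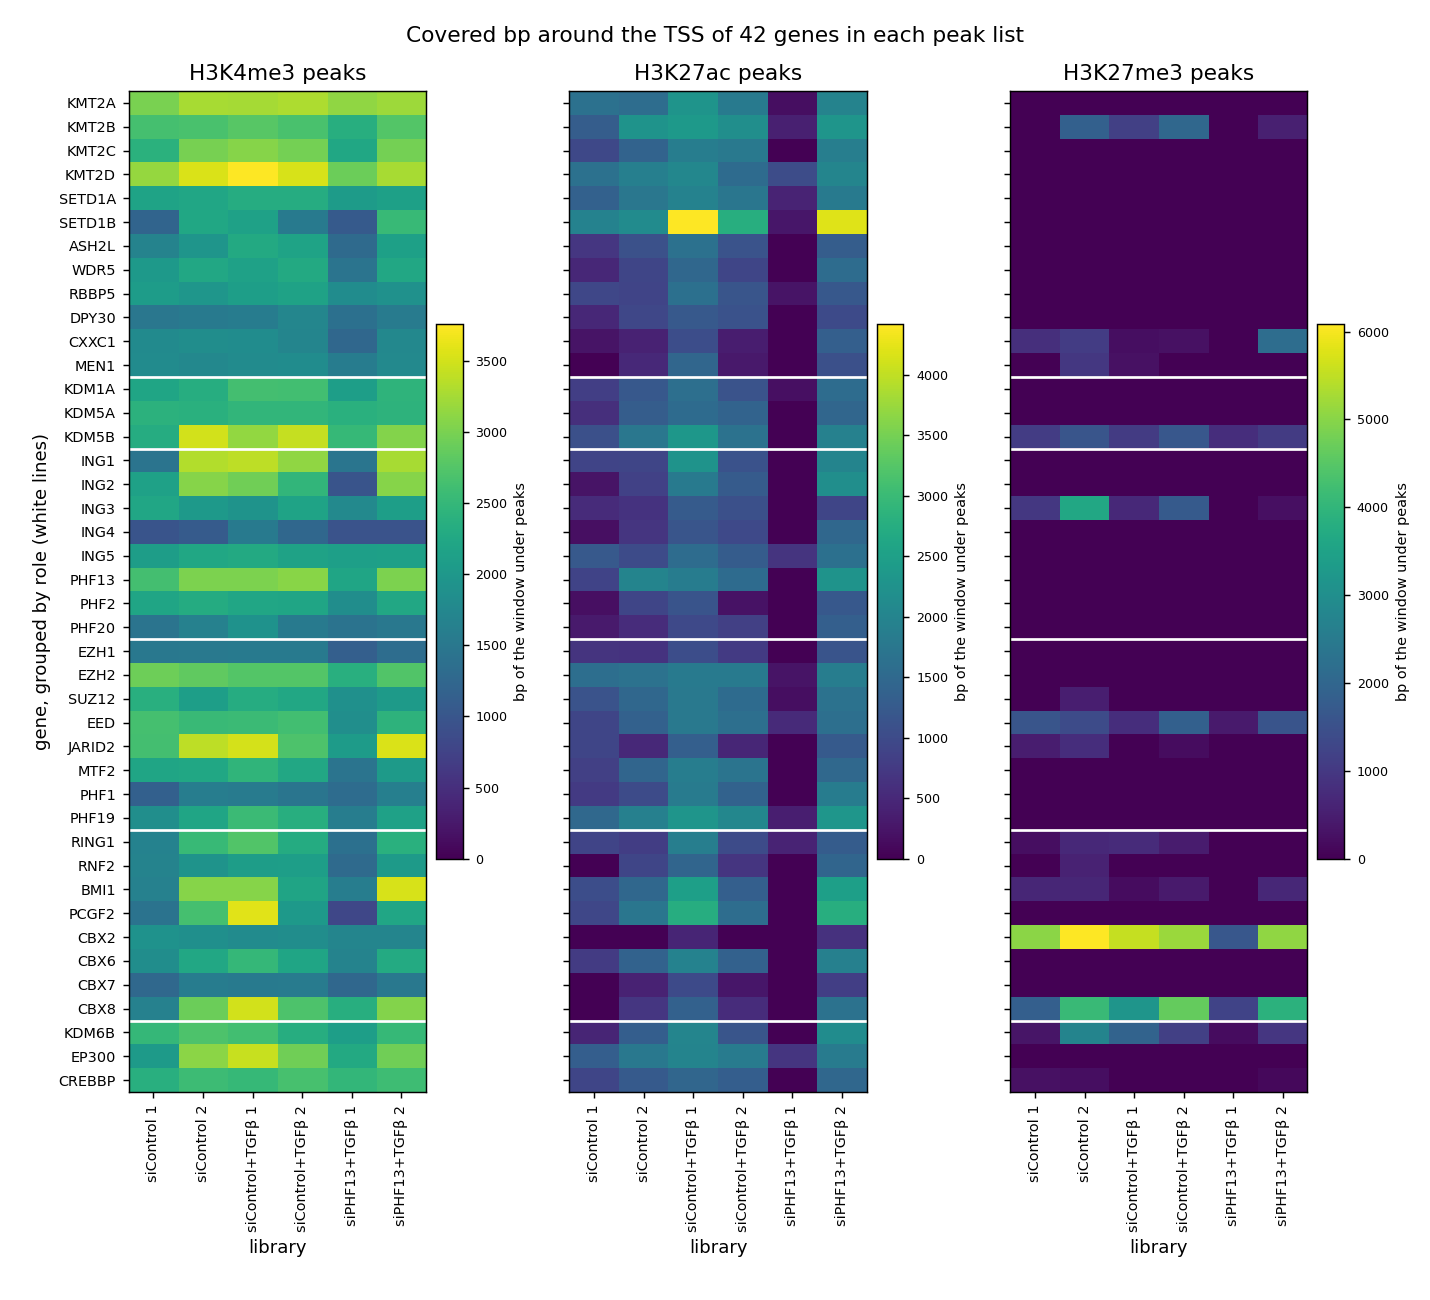
Each cell is the number of bp of a gene's window under peaks of the mark named above the panel, with one row per gene in order of role and one column per library. H3K4me3 filled every row, H3K27ac was low or at 0 in most rows of siPHF13+TGFβ replicate 1, and H3K27me3 stood out at CBX2 and CBX8.

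The marks were spread over the roles. H3K27ac in all 6 lists occurred at 6 of the 12 writers, 4 of 8 PRC2 genes and 1 of 8 PRC1 genes. This split was set by 1 list, since the 14 genes were those with a peak in siPHF13+TGFβ replicate 1, the shortest. In at least 5 lists H3K27ac stood at 37 of the 42 genes, against 67.1% of coding genes with H3K4me3 in all 6. H3K27me3 in at least 1 list occurred at 5 of 8 PRC1 genes, 3 of 8 PRC2 genes, 3 of 12 writers, 1 of 3 erasers, 1 of 8 readers and 2 of the 3 genes KDM6B, EP300 and CREBBP. These are counts of small groups and were not tested against each other. Mean covered bp over the 6 lists of the 42 genes ran from 1128 to 3364 for H3K4me3, with a median of 2171 against 1838 over the 14924 windows with a peak in at least 2 lists, and 32 of 42 lay above that median. For H3K27ac the means ran from 181 to 2622 with a median of 1114 against 970, and 28 of 42 lay above. In peak strength, the median within-list percentile of the strongest H3K4me3 peak, ranked by its −log10 q with 100 the strongest, was 75.3 for the 42 genes and 75.5 for all tested windows.

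PHF13, a PHD-finger reader of H3K4me3 on chromosome 1 (ENSG00000116273, chr1:6673791-6684090), is the gene whose mRNA the siRNA targets, and the lists hold no mRNA level, so the depletion is not checked here. H3K4me3 covered 2637 and 3010 bp without TGFβ, 3018 and 3084 bp with TGFβ, and 2205 and 3018 bp with TGFβ and siPHF13. Its mean of 2829 bp stood at percentile 95.5 among tested windows, and siPHF13+TGFβ replicate 1 was the lowest library. H3K27ac covered 882 and 1991 bp without TGFβ, 1852 and 1535 bp with TGFβ, and 0 and 2271 bp with TGFβ and siPHF13, so the latter group held both the lowest and the highest value. H3K27me3 was at 0 in all 6 lists. The log2 difference in H3K4me3 was 0.11 ± 0.17 (SE, n = 2 against 2) with TGFβ and −0.23 ± 0.17 with depletion, with limma adjusted p-values of 0.885 and 0.426. The PHF13 TSS itself lay in a gap between H3K4me3 peaks in every list, 41 to 287 bp from the nearest edge.

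Among the H3K4 writers, KMT2D and KMT2A had the longest H3K4me3 coverage of all. KMT2D, a methyltransferase best known at enhancers (chr12:49412758-49454577, minus strand), had 3162 and 3548 bp without TGFβ, 3758 and 3533 bp with TGFβ, and 2915 and 3265 bp with TGFβ and siPHF13, in a single peak that spanned the TSS in all 6 lists. Its mean of 3364 bp ranked at percentile 99.5. KMT2A, the MLL methyltransferase, followed at 3193 bp with values from 3000 to 3296 bp. KDM5B, a demethylase of H3K4me3, was the next at a mean of 2999.8 bp, ranging from 2331 to 3508 bp.

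At the other end stood ING4, EZH1 and PHF1. ING4, an H3K4me3 reader of an acetyltransferase complex (chr12:6759467-6772308, minus strand), had 972 and 1079 bp without TGFβ, 1531 and 1258 bp with TGFβ, and 962 and 967 bp with TGFβ and siPHF13. Its mean length of 1128 bp was at percentile 13.6, but its strongest peak was at a mean within-list percentile of 89.1. EZH1, the alternative catalytic subunit of PRC2, averaged 1432 bp and PHF1, a PRC2 accessory protein, 1452 bp. Their strongest peaks were at mean within-list percentiles of 78.1 for EZH1 and 83.2 for PHF1.

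A TSS under an H3K4me3 peak in all 6 lists was seen for 18 of the 42 genes, against 57.3% of tested windows. KMT2D, SETD1A, RBBP5, DPY30, MEN1, KDM1A, ING5, PHF2, PHF20, EZH1 and CBX2 had a single peak that spanned it in every list. At KMT2C, PHF13, BMI1 and PCGF2 the TSS lay between peaks in all 6 lists. BMI1, a PRC1 ring-finger protein, had 4 to 7 separate H3K4me3 peaks in its window, with the nearest edge 220 to 1354 bp from the TSS. Its window also holds the start sites of the neighbouring coding genes COMMD3 and COMMD3-BMI1, and that of KDM1A holds TEX46, that of RING1 HSD17B8 and that of PCGF2 PSMB3, so a peak there cannot be given to one gene. No windows of the 42 genes overlapped.

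For H3K27ac the longest coverage was at SETD1B, KMT2B and PHF19. SETD1B, an H3K4 methyltransferase (chr12:122241915-122270562, plus strand), had 1961 and 2128 bp without TGFβ, 4415 and 2762 bp with TGFβ, and 272 and 4193 bp with TGFβ and siPHF13, with a mean at percentile 99.7. The values of its siPHF13+TGFβ libraries were thus the lowest and the next to highest of the 6. KMT2B, a writer of the same family, averaged 1807 bp, and PHF19, a PRC2 accessory reader, 1740 bp. The shortest were CBX2 at 181 bp, CBX7 at 420 bp, both chromodomain proteins of PRC1, and MEN1, the menin subunit of KMT2A and KMT2B complexes, at 556 bp. CBX2 had H3K27ac in 2 lists only, 455 bp in siControl+TGFβ replicate 1 and 633 bp in siPHF13+TGFβ replicate 2.

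EED, the PRC2 subunit that binds H3K27me3, had the highest rank for H3K27ac of the 42 genes, a mean within-list percentile of 97.2, although its 1306 bp of mean coverage was moderate. Its covered bp were 918 and 1370 without TGFβ, 1780 and 1617 with TGFβ, and 530 and 1620 with TGFβ and siPHF13. SETD1A followed at 94.1, KMT2D at 93.2, RBBP5 at 93.1 and EP300 at 92.1, a set that spans writers, a PRC2 subunit and an acetyltransferase.

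**Figure D2:**
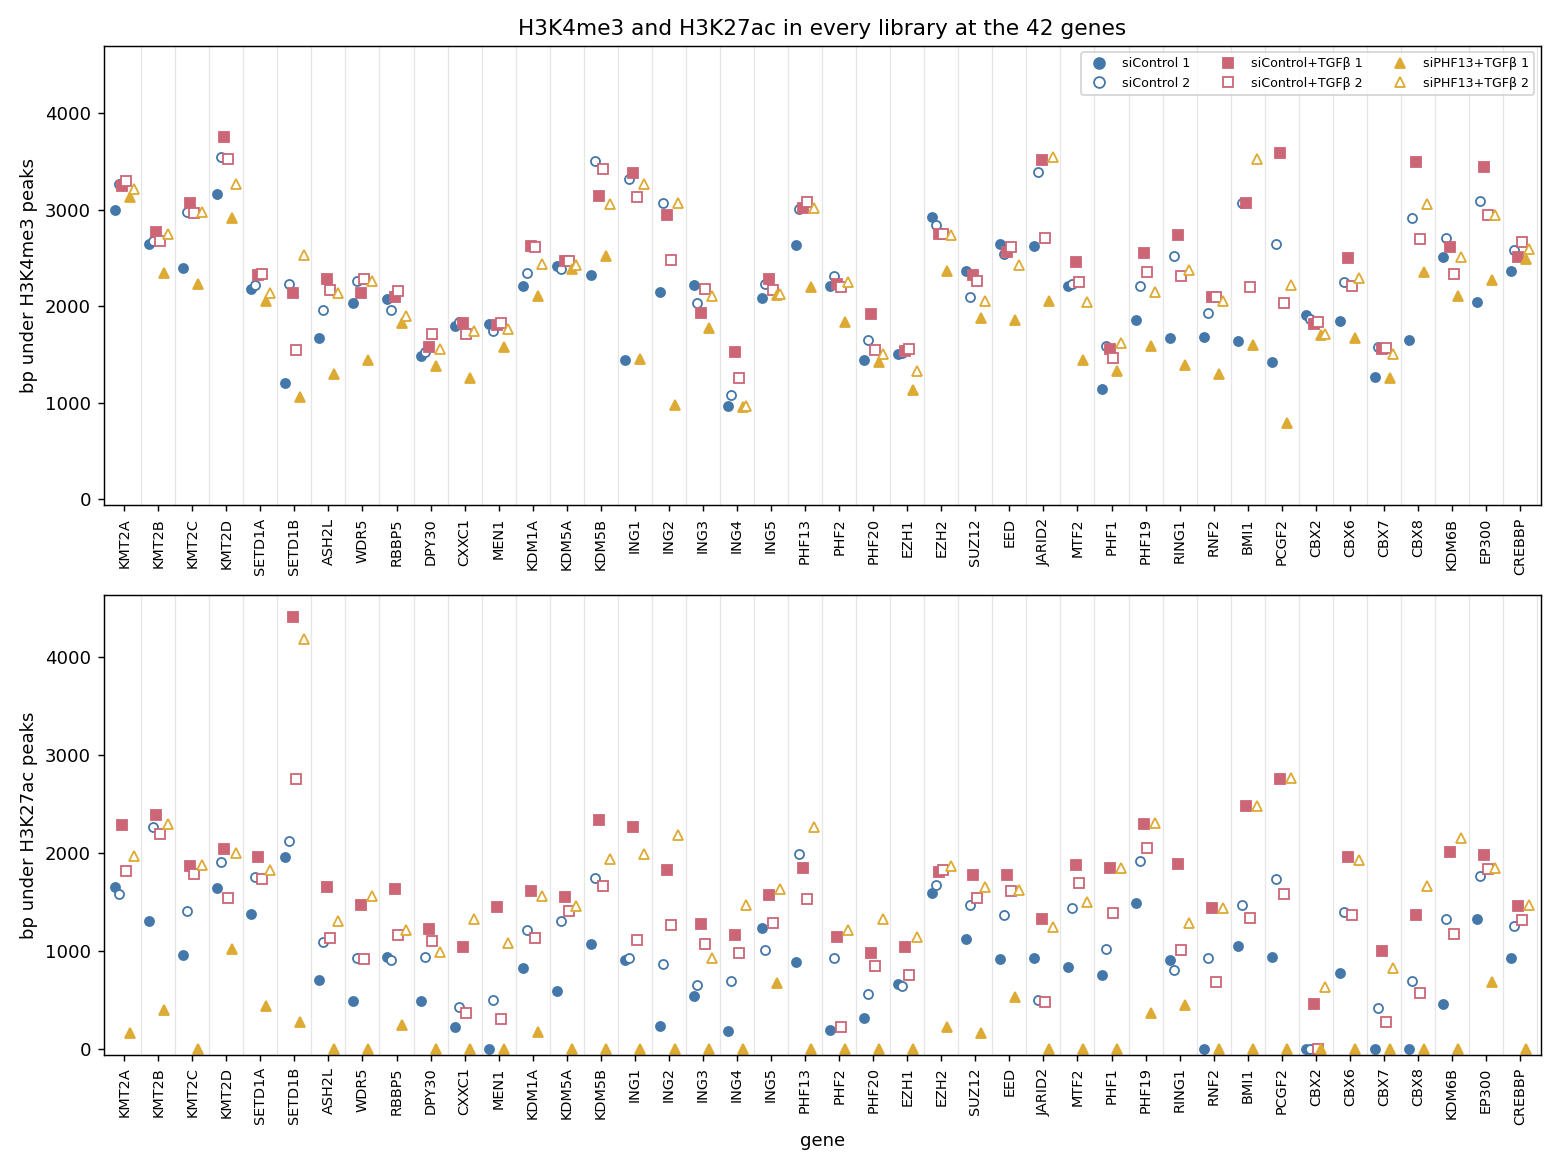
Each point is 1 library's covered bp (y axis) of H3K4me3 (upper panel) or H3K27ac (lower panel) at one of the 42 genes (x axis), with colour and shape for the group and open symbols for replicate 2. In the lower panel siPHF13+TGFβ replicate 1 lay at 0 for 28 genes, while replicate 2 of that group lay near siControl+TGFβ replicate 1.

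H3K27me3 was present in at least 2 lists at 13 of the 42 genes (31%), against 38.2% of coding genes. Among the 14153 coding genes with H3K4me3 in all 6 lists, as at all 42, 4464 had it in at least 2 lists. At most of the 13 its coverage was below the median of tested windows, a set not restricted to windows with H3K4me3. Of these 13, only CBX2 and CBX8 exceeded the median mean coverage of 2010 bp over the 7584 tested windows, and the median percentile was 31.9. CBX2, which binds H3K27me3 through its chromodomain (ENSG00000173894, chr17:77751947-77761782, plus strand), had 5017 and 6083 bp without TGFβ, 5550 and 5180 bp with TGFβ, and 1663 and 5070 bp with TGFβ and siPHF13. Its strongest peak ranked between percentiles 91.8 and 98.4 of each list, also in the shortest one. CBX8, its neighbour and family member (ENSG00000141570, chr17:77765931-77775482, minus strand), had 1838 and 4112 bp, 3162 and 4644 bp, and 1223 and 3913 bp in the same order, with ranks of 41.7 in siPHF13+TGFβ replicate 1 and between 96.6 and 98.7 in the other 5 lists.

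The other 3 genes with H3K27me3 in every list had less of it. KDM6B, the H3K27 demethylase (chr17:7737535-7758114, plus strand), had 350 and 2747 bp without TGFβ, 1928 and 1149 bp with TGFβ, and 197 and 957 bp with TGFβ and siPHF13. EED had 1595 and 1391 bp, 792 and 1861 bp, and 441 and 1590 bp. KDM5B had 1087 and 1600 bp, 1047 and 1659 bp, and 797 and 1053 bp. At each of the 3 genes the lowest value was in siPHF13+TGFβ replicate 1. EED thus carried all 3 marks in all 6 lists, the only one of the 42 genes to do so.

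Genes with H3K27me3 in 4 or 5 lists were KMT2B, CXXC1, ING3, RING1 and BMI1. CXXC1, which binds unmethylated CpG and brings SETD1 enzymes, had 830 and 1090 bp without TGFβ, 222 and 271 bp with TGFβ, and 0 and 2165 bp with TGFβ and siPHF13. ING3, a reader in an acetyltransferase complex, had 976 and 3636 bp, 711 and 1725 bp, and 0 and 240 bp. KMT2B had 0 and 1868 bp, 1154 and 2026 bp, and 0 and 534 bp. All 3 were at 0 in siPHF13+TGFβ replicate 1, as were RING1, with 226 to 745 bp in the other groups, and BMI1, with 200 to 688 bp in the other 5 lists. JARID2 and CREBBP had peaks in 3 lists, MEN1 in 2, and SUZ12 and RNF2 in siControl replicate 2 alone, the longest H3K27me3 list.

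**Figure D3:**
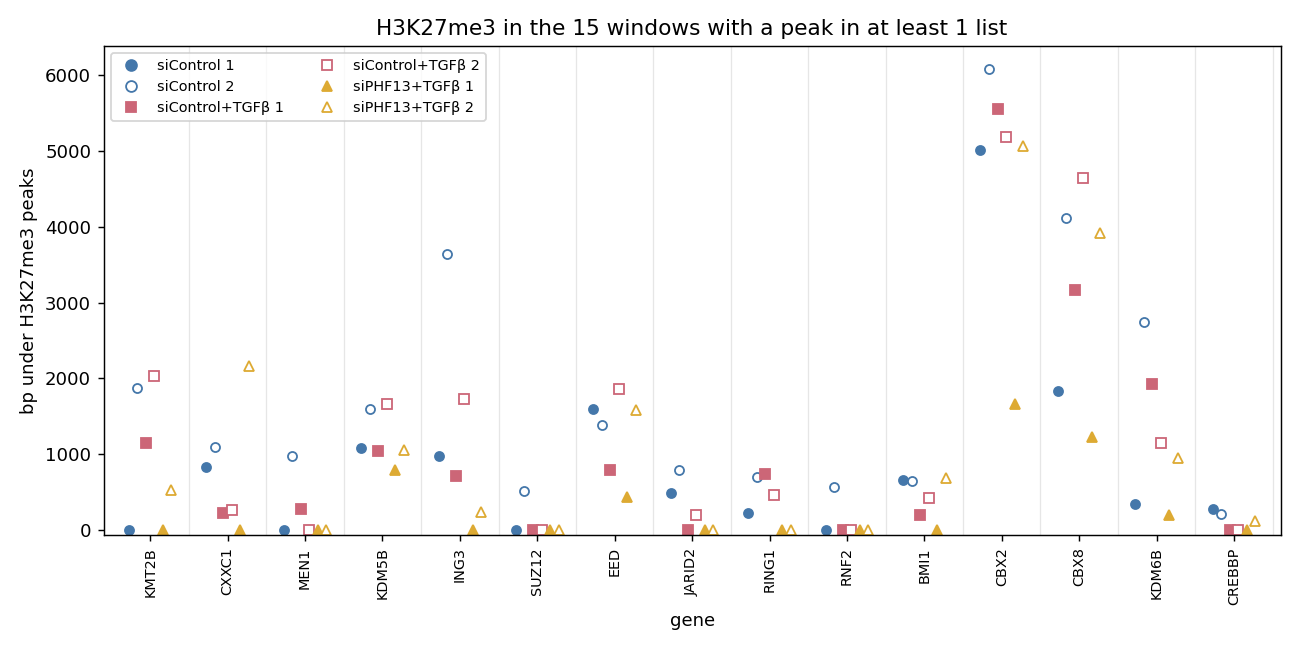
Covered bp of H3K27me3 (y axis) in each of the 6 libraries at the 15 genes with a peak in at least 1 list (x axis), with colour and shape for the group and open symbols for replicate 2. CBX2 and CBX8 reached 6083 and 4644 bp, and the filled triangles of siPHF13+TGFβ replicate 1 were at 0 for 10 of the 15 genes.

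The H3K27me3 peaks flanked the start sites and did not cross them. A peak lay over the TSS of 0 of the 13 genes in any list, whereas 52.3% of tested windows, and 43.3% of those with H3K4me3 in all 6 lists, had a TSS under H3K27me3 in at least 1 list. The closest edges were 407 bp from the TSS at CBX2, 579 bp at BMI1, 654 bp at JARID2 and 805 bp at CBX8. At 10 of the 13 genes more of the mark lay upstream than downstream, against 63.1% of such windows with H3K4me3 in all 6 lists, and at 8 of 13 none lay downstream, against 37.5%. JARID2, RING1 and BMI1 had it downstream only. At EED the mark was upstream, 1617 to 2561 bp from the canonical TSS, inside the span of longer EED transcripts, whose gene model begins at position 85912254.

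H3K4me3 and H3K27me3 peaks shared bp at 4 of the 13 genes, all of PRC1, against 62.1% of tested windows with H3K4me3 in all 6 lists. At CBX2 they shared 724 and 924 bp without TGFβ, 841 and 789 bp with TGFβ, and 0 and 534 bp with TGFβ and siPHF13. CBX8 shared 0 and 550 bp, 382 and 700 bp, and 0 and 315 bp, and BMI1 shared 0 and 534 bp, 200 and 240 bp, and 0 and 511 bp. RING1 shared bp in 3 lists, at 174 to 551 bp, but far from its TSS. Its H3K27me3 had the nearest edge 3817 to 4543 bp downstream, near or past the end of the gene (chr6:33176277-33180499). Library siPHF13+TGFβ replicate 1 had no shared bp at any of the 4 genes. Shared bp show peaks of both marks over the same stretch in a population of cells, which does not place both marks on one nucleosome. The upstream CBX2 stretch printed above lay from −803 to −651 bp relative to the TSS, at the inner edge of the H3K27me3 peak, and its 5 CpGs gave an observed-to-expected ratio of 0.617.

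CBX2 and CBX8, a pair of chromodomain genes of PRC1 that lie near each other on chromosome 17, were then viewed as one region of 38930 bp (chr17:77741947-77780876), chosen after its values were seen. H3K27me3 covered 13526 and 21131 bp of it without TGFβ, 20633 and 20656 bp with TGFβ, and 4749 and 19123 bp with TGFβ and siPHF13. The low value was that of siPHF13+TGFβ replicate 1, the shortest H3K27me3 list. The longest stretch under one peak ran 9143 bp in siControl+TGFβ replicate 2, upstream of the canonical CBX8 TSS and counted to the end of the region. Part of it lay inside the CBX8 gene model, which reaches position 77775482. H3K4me3 covered 3562 to 5654 bp and H3K27ac 0 to 2301 bp. At CBX8 the H3K4me3 around the TSS was split into short peaks, whereas one over the far part of the gene ran from 14381 to 15901 bp past the CBX2 TSS in siControl+TGFβ replicate 2.

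**Figure D4:**
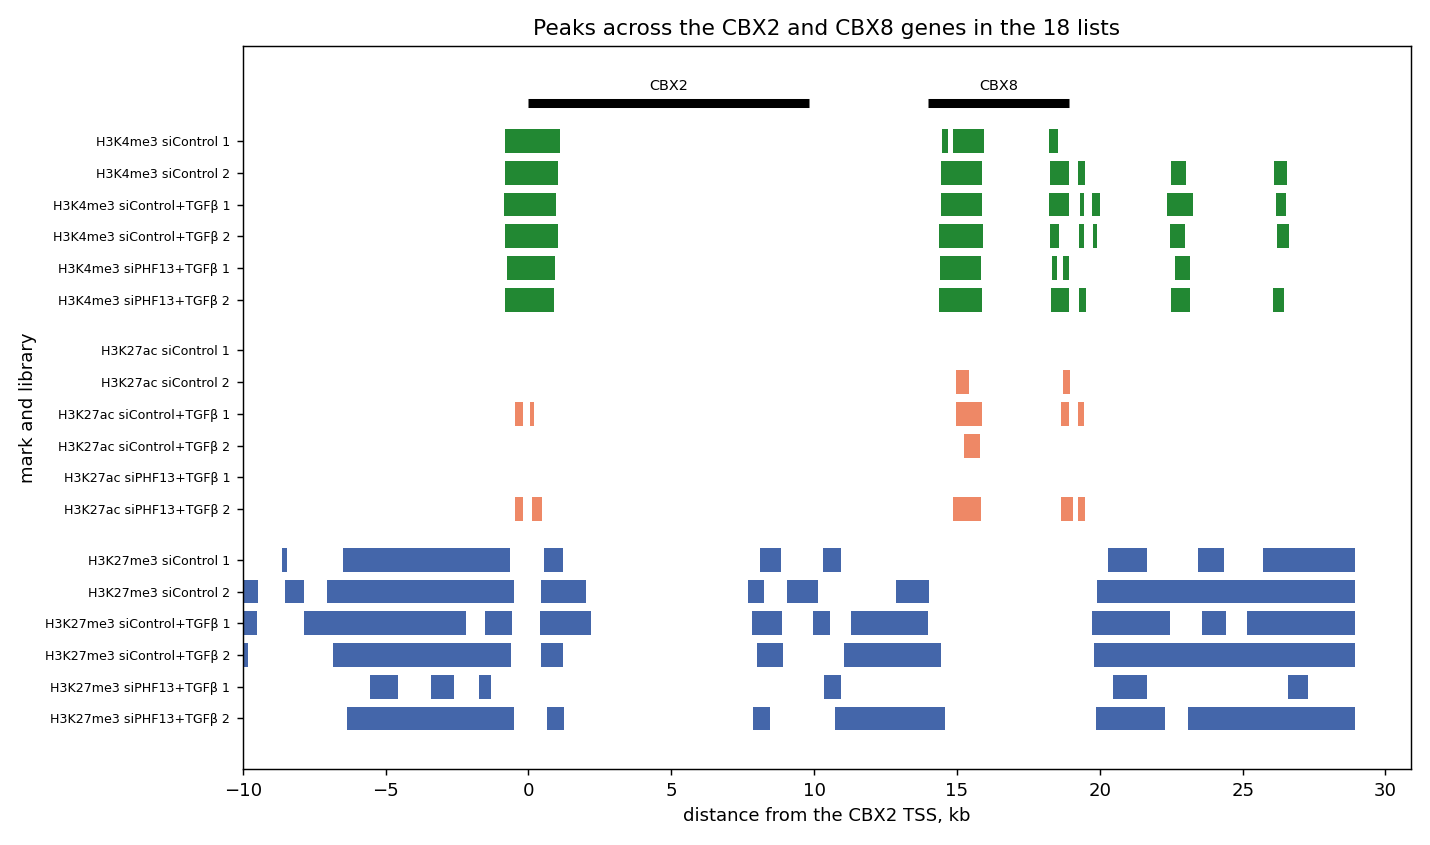
Peaks of the 3 marks (bars, one row per mark and library) across the CBX2 and CBX8 genes (black bars), by distance from the CBX2 TSS in kb, with peaks cut at the ends of the region. The CBX8 bar begins at the canonical TSS, although the gene model reaches further right, to position 77775482. In 5 of the 6 libraries H3K27me3 bars stood within 5 kb on both sides of the CBX2 TSS, and in siPHF13+TGFβ replicate 1 they stood upstream alone; the gap over the TSS held H3K4me3 bars.

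To determine the effect of TGFβ on these genes, siControl+TGFβ was compared with siControl. The mean H3K4me3 coverage was higher at 35 of the 42 genes and lower at 7, with a median difference of 135 bp against 151.5 bp over all tested windows. limma called 0 of the 42 at an adjusted p under 0.05, with 24 of 14924 windows called higher (0.161%) and 0 lower, and ING4 alone had an unadjusted p under 0.05, in the higher direction, as did 3.25% of windows, with 0.0268% in the lower. Both siControl+TGFβ libraries exceeded both siControl libraries at 13 of the 42 genes, against 46.6% of tested windows, and lay below them at 2, against 2.29%. The 13 made up 31% of the 42 genes. With 2 libraries against 2, an exact permutation test cannot give a p below 0.33.

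The 3 largest differences among the 13 were at PHF19, ASH2L and ING4. PHF19 went from 1864 and 2215 bp to 2558 and 2356 bp, a mean difference of 417.5 bp, which was 242 bp without siControl replicate 1 and 652.5 bp over all coding TSSs of the gene. ASH2L, a subunit of the writer core, went from 1677 and 1965 bp to 2286 and 2175 bp, and ING4 differed by 369 bp. Without siControl replicate 1 ASH2L differed by 265.5 bp, and without siControl+TGFβ replicate 1 ING4 differed by 232.5 bp. Those lower were EZH2, the main catalytic subunit of PRC2, from 2931 and 2842 bp to 2755 and 2750 bp, and CBX2, from 1911 and 1868 bp to 1815 and 1836 bp. The log2 difference was 0.40 ± 0.12 (SE) at ING4, with a limma adjusted p of 0.879, and no gene of the 42 had a smaller one. The median of all tested windows was shifted by 0.11 on the log2 scale, and with each library centred on its own median the counts of non-overlapping genes became 5 higher and 10 lower, against 16.3% and 17.7% of tested windows. Centring evens the balance over all windows by construction. The median difference over the 42 genes ran from 41.5 bp without siControl replicate 1 to 290.5 bp without siControl replicate 2. By construction, leaving out a library can only keep or raise a count of non-overlapping genes, here and below. Such counts are therefore no check on the main count. Leaving out siControl replicate 2 gave 33 higher, against 73.9% of tested windows, and 5 lower, against 9.99%. Leaving out siControl+TGFβ replicate 2 gave 25 higher, against 70.2%. Leaving out siControl replicate 1 gave 10 lower, against 13.2%, and siControl+TGFβ replicate 1 gave 5 lower, against 10.6%.

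H3K27ac mean coverage was higher with TGFβ at 42 of 42 genes, by a median of 492.5 bp against 426.5 bp over all tested windows. Both libraries exceeded both siControl libraries at 23 of the 42 genes, against 55.4% of tested windows, and lay below at 0, against 0.0334%. By role these were 7 of 8 PRC2 genes, 6 of 8 readers, 6 of 12 writers, 2 of the 3 genes KDM6B, EP300 and CREBBP, 1 of 3 erasers and 1 of 8 PRC1 genes. The largest were SETD1B at 1544 bp, ING2, a reader in a deacetylase complex, at 995 bp from 233 and 862 to 1823 and 1262, and ING1, of the same type, at 770.5 bp from 902 and 929 to 2265 and 1107. limma called 0 of the 42 and 0 of 11966 windows. An unadjusted p under 0.05 was seen at 0 of the 42, against 0.627% of windows higher and 0% lower. Log2 differences ran up to 1.82, and the SE was 1.48 at every one of the 42. The fit thus used the same spread at each of the 42 genes, in place of that of the gene's own libraries. That spread was shared over the 3 groups, so it took in siPHF13+TGFβ replicate 1, which is outside this comparison and had 0 bp at 28 genes. With this SE the largest difference, at CBX8, had an unadjusted limma p of 0.22, so 0 calls says little about the 42. Fitted on the 4 libraries of this comparison alone, limma called 0 of the 42 and 0 windows, with a smallest adjusted p of 0.51. siControl+TGFβ replicate 1 was the longest of the 6 H3K27ac lists, and with all lists cut to equal length 23 of the 42 genes kept a peak in at least 2 lists. Of these 23, 11 were higher, against 46.3% of windows, and 2 lower, against 4.1%, and the median difference over the 42 was 0 bp. SETD1B was then −1711 bp, lower with TGFβ, ING2 differed by 0 bp and ING1 by 422.5 bp. Without siControl+TGFβ replicate 1 SETD1B differed by 717.5 bp and ING1 by 191.5 bp, and without replicate 2 of that group by 2370.5 and 1349.5 bp. Without siControl replicate 2, 39 genes were higher, against 84.5% of tested windows, and without siControl+TGFβ replicate 2, 41 were, against 97.9%. Without siControl replicate 1, 1 gene was lower, against 1.66%, and without siControl+TGFβ replicate 1, 2 were, against 6.89%. The median difference was 233 bp without siControl+TGFβ replicate 1, 272 bp without siControl replicate 1 and 682.5 bp without siControl+TGFβ replicate 2.

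H3K27me3 with TGFβ was lower in mean at 11 of the 42 genes, higher at 4 and equal, at 0, at 27. Of the 13 tested, 4 lay below both siControl libraries, against 7.74% of tested windows, and 0 lay above, against 6.99%. CXXC1 went from 830 and 1090 bp to 222 and 271 bp, JARID2, a PRC2 cofactor, from 490 and 798 bp to 0 and 205 bp, and BMI1 from 656 and 644 bp to 200 and 429 bp. CREBBP, the acetyltransferase, went from 278 and 216 bp to 0 in both, the only gene of the 13 with the mark in both siControl libraries and neither siControl+TGFβ library, against 1.9% of tested windows. Those bp lay at the upstream margin of the window, with the nearest edge 4723 to 4882 bp from the TSS in the lists with a peak. They are not a change at the CREBBP promoter itself. limma called 0 of the 42 genes and 0 of 7584 windows, and 0 of the 42 had an unadjusted p under 0.05, against 0.409% of windows higher and 1.67% lower. With lists of equal length, 2 of the 11 genes then tested were lower, against 6.49% of windows, and the difference at JARID2 was 0 bp, and within 2.5 kb of the TSS that at CXXC1 was 0 bp. Leaving out siControl replicate 1 gave 8 of 13 lower, against 68.3% of tested windows, and siControl+TGFβ replicate 2 gave 7 lower, against 19.2%, and 1 higher, against 16.7%. Leaving out siControl replicate 2 gave 5 of 13 higher, against 61.9%, and siControl+TGFβ replicate 1 gave 4 higher, against 18%, with BMI1 then at −221 bp.

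To determine the effect of PHF13 depletion under TGFβ, siPHF13+TGFβ was compared with siControl+TGFβ. H3K4me3 mean coverage was lower at 42 of 42 genes, by a median of −309.75 bp against −264 bp over all tested windows. Both siPHF13+TGFβ libraries lay below both siControl+TGFβ libraries at 23 of the 42 genes, against 60.9% of tested windows, and above at 0, against 0.308%. By role these were 7 of 12 writers, 3 of 3 erasers, 3 of 8 readers, 6 of 8 PRC2 genes, 3 of 8 PRC1 genes and EP300. The largest were MTF2, a PRC2 accessory protein, from 2465 and 2256 bp to 1441 and 2051 bp, PHF19, from 2558 and 2356 bp to 1586 and 2151 bp, and the acetyltransferase EP300, from 3448 and 2945 bp to 2279 and 2944 bp. At EP300 the groups all but touched, at 2944 and 2945 bp, and at each of the 3 genes the lowest value was siPHF13+TGFβ replicate 1. The differences were −614.5 bp at MTF2, −588.5 bp at PHF19 and −585 bp at EP300, and without that library −309.5, −306 and −252.5 bp. EP300 was at −351 bp in lists of equal length, −333.5 bp without siControl+TGFβ replicate 1 and −917.5 bp without siPHF13+TGFβ replicate 2.

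limma called 0 of the 42 genes, with 27 of 14924 windows called lower (0.181%) and 0 higher. ING4 and EZH1 had unadjusted p-values under 0.05 in the lower direction, as did 9.33% of windows, with 0.0134% in the higher. ING4 changed by −0.48 ± 0.12 (SE) and EZH1 by −0.30 ± 0.10 on the log2 scale, each with a limma adjusted p of 0.413, and no gene of the 42 had a smaller one. The median of all tested windows moved by −0.21 on the same scale, the same as the median of −0.21 for the 42 genes. With libraries centred, the counts of non-overlapping genes became 12 higher and 4 lower, against 18.9% and 17.9% of tested windows, a balance over all windows that centring sets by construction. Leaving out siPHF13+TGFβ replicate 2 gave 42 of 42 lower, against 94.3% of tested windows, and leaving out replicate 1 of that group gave 6 higher, against 10.8%. The median difference was −59.75 bp without siPHF13+TGFβ replicate 1 and −514.25 bp without siPHF13+TGFβ replicate 2. Because the siControl+TGFβ libraries serve both comparisons, a gene high in them, as ING4 was, is higher in one and lower in the other.

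H3K27ac mean coverage was lower with depletion at 41 of 42 genes and higher at CBX2, with a median of −649.25 bp against −525.5 bp over all tested windows, and this rested on 1 library. Without siPHF13+TGFβ replicate 1 the median difference was 204 bp, higher with depletion, and 19 genes lay above both siControl+TGFβ libraries, against 29.2% of tested windows. With all lists cut to equal length the median difference was 0 bp, and of the 23 genes then tested 3 were lower, against 19.7% of windows, and 1 higher, against 2.86%. The 3 genes below them in both libraries were DPY30, a subunit of the writer core, ING3 and MTF2, against 11% of tested windows, and 0 lay above, against 0.0167%. DPY30 had 1225 and 1104 bp with TGFβ, and 0 and 993 bp with TGFβ and siPHF13, ING3 had 1272 and 1072 bp and 0 and 930 bp, and MTF2 had 1878 and 1695 bp and 0 and 1496 bp. The mean differences were −668, −707 and −1038.5 bp, and without siPHF13+TGFβ replicate 1 they were −171.5, −242 and −290.5 bp. In lists of equal length DPY30 differed by 0 bp, ING3 by −707 bp and MTF2 by −1525 bp. With the same SE of 1.48 at each of the 42, limma called 0 of them and 0 of 11966 windows. It gave 0 of the 42 an unadjusted p under 0.05, against 0.0167% of windows lower and 0% higher, and the smallest adjusted p was 0.694. Without siPHF13+TGFβ replicate 2 it called 33 of the 42 and 9158 of 11966 windows, from the lone replicate 1, whose spread was then assumed to be that of the other groups. Without siControl+TGFβ replicate 2, 22 genes were lower, against 69.8% of tested windows, and without siPHF13+TGFβ replicate 2, 41 were, against 92.9%.

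The short H3K27ac list of siPHF13+TGFβ replicate 1 held peaks at 14 of the 42 genes, 33.3%, against 33.5% of tested windows. The 14 were the genes with H3K27ac in every list named above, among them KMT2A, EZH2, EED and EP300. In the other 5 lists the strongest H3K27ac peak of these 14 genes had a median within-list percentile of 89.7, with a range of 68 to 98.7, and that of the 28 genes without a peak 62.9, with a range of 17.2 to 93.6. PHF13, CBX2, CBX8, BMI1 and KDM6B were among the 28.

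H3K27me3 mean coverage was lower with depletion at 10 of the 42 genes, higher at 3 and equal at 29. Over the 13 tested genes the median log2 difference was −0.80, against −0.89 over all tested windows. Of the 13 tested, 5 lay below both siControl+TGFβ libraries, against 28.6% of tested windows, and 0 above, against 1.29%. CBX2 went from 5550 and 5180 bp to 1663 and 5070 bp, KMT2B from 1154 and 2026 bp to 0 and 534 bp, and ING3 from 711 and 1725 bp to 0 and 240 bp, and RING1 and KDM6B were the others. RING1, the H2A ubiquitin ligase, went from 745 and 458 bp to 0 in both libraries, a loss seen at 4.01% of tested windows. Those bp lay at least 3817 bp downstream of the TSS, near or past the end of the gene. ING3 and RING1 had unadjusted p-values under 0.05 in the lower direction, against 2.48% of windows lower and 0.145% higher, with log2 differences of −2.72 ± 1.09 (SE) and −2.78 ± 0.82 and a limma adjusted p of 0.829 for both, and limma called 0 of the 42 genes and 0 of 7584 windows. CXXC1, which had 222 and 271 bp in siControl+TGFβ, had 0 and 2165 bp in siPHF13+TGFβ, so its libraries overlapped widely. Within 2.5 kb of the TSS the difference was 0 bp at ING3 and −48.5 bp at KMT2B. With libraries centred, 2 genes were lower, against 11.3% of tested windows, and 3 higher, against 20.9%. Leaving out siControl+TGFβ replicate 1 gave 9 of 13 lower, against 50.4%, siPHF13+TGFβ replicate 2 gave 10 lower, against 75.6%, and siPHF13+TGFβ replicate 1 gave 3 higher, against 30.1%. The difference at CBX2 was −1998.5 bp, −1110 bp in lists of equal length, −295 bp without siPHF13+TGFβ replicate 1 and −3702 bp without replicate 2 of that group, and that at ING3 was −1098 bp and −591 bp without siControl+TGFβ replicate 2.

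A further 42 genes of the same pathways, none of them among those above, such as KMT2E, NCOA6 and PCGF5, were described by counts. They include genes on chromosome Y, and whether these cells carry that chromosome was not checked. H3K4me3 was present in all 6 lists at 39 of the further 42 and in 0 lists at 3, H3K27ac in all 6 at 19, and H3K27me3 in all 6 at 0 and in at least 2 lists at 7. limma called 0 of them in the 6 combinations of mark and comparison. With TGFβ, H3K4me3 did not overlap between groups at 21 of 39 higher and 2 lower, against 46.6% and 2.29% of tested windows, and H3K27ac at 30 of 39 higher and 0 lower, against 55.4% and 0.0334%. With depletion, H3K4me3 was lower at 24 of 39, against 60.9%, and H3K27ac at 5 of 39, against 11%. For H3K27me3, 2 of 7 were lower in each comparison, against 7.74% with TGFβ and 28.6% with depletion. PCGF5, a partner of RING1 and RNF2 in a variant PRC1, had the most H3K27me3 in a single list of these genes, with 1974 and 3682 bp without TGFβ, 3379 and 1984 bp with TGFβ, and 0 and 4424 bp with TGFβ and siPHF13.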

How the data were processed

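ChIP-seq of H3K4me3, H3K27ac and H3K27me3 in PANC-1 was analysed from the deposited peak lists, 1 per library. The authors trimmed reads with Trim Galore 0.4.1, aligned them to hg19 with Bowtie2 2.4.1, removed duplicates with Picard and called peaks per library against input with MACS2 2.2.7.1. The 6 inputs were not analysed here. Columns of the deposited lists give, for each peak, its score, its fold enrichment over input as a ratio, and −log10 of the p-value and q-value. The lowest −log10 q was about 1.3 for the narrow peaks and 1 for H3K27me3, called as broad peaks. The methods state a stricter q cutoff for narrow peaks than the deposited lists show, and a −log10 q of at least 3 was run as an alternative. No source gives read counts for the lists, so depth is unknown.

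Windows of 5 kb either side of the canonical TSS (GENCODE 44, hg19) were intersected with the peaks, and 281 genes with no canonical TSS were left out. A gene was tested where at least 2 of the 6 lists of a mark had a peak. limma 3.58.1 (R 4.3.3) was fitted to log2(bp + 100) over the 6 lists, 3 groups in 1 fit, with Benjamini-Hochberg adjustment over all tested windows at 0.05. A fold change on this scale understates the change of short coverage. Scripts were tested on simulated data. For limma, recovery of changed genes was required only at a spread well below that of the data, so the test does not show its power here. Results for 1 further pathway gene and 1 promoter sequence are not reported here. The members and lists were chosen with earlier results of these data known. Genes named in the comparisons were the 3 per mark, comparison and direction with the largest difference among those whose groups did not overlap, those with H3K27me3 in at least 4 lists, the 3 highest and 3 lowest by mean coverage, and PHF13. Other genes were named after their values were seen. Alternatives covered the window, TSS set, q threshold, list length, rank, centring, pseudocount, filter, replicate block, a 4-library fit and leaving out each library.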

Additional observations from a re-analysis of the deposited data

How the results depend on the processing

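The 6 limma counts of the 42 genes were 0 under every alternative except H3K27ac with depletion, which ranged from 0 to 33 over the fits that left out 1 library. In the ranges below, counts of genes higher or lower in both libraries can by construction only stay or rise when a library is left out. For H3K4me3 with TGFβ, the genes higher in both libraries (13) ranged from 16 to 33 with 1 library left out and were 5 when centred, and those lower (2) ranged from 3 to 10 and were 6 by rank and 10 when centred. The median difference (135 bp) ranged from 41.5 to 290.5. With depletion, H3K4me3 genes higher (0) ranged from 0 to 6 and were 1 in equal-length lists, 4 by rank and 12 when centred, and those lower (23) ranged from 23 to 42 and were 10 by rank and 4 when centred. For H3K27ac with TGFβ, genes higher (23) ranged from 23 to 41 and were 11 in equal-length lists and 13 by rank, those lower (0) ranged from 0 to 2 and were 2 in both settings, and the median was 0 bp in equal-length lists. With depletion, H3K27ac genes higher (0) ranged from 0 to 19 and were 1 in equal-length lists and 1 by rank, those lower (3) ranged from 3 to 41 and were 12 by rank, and the median ranged from −1306 to 204 and was 0 bp in equal-length lists. For H3K27me3 with TGFβ, genes higher (0) ranged from 0 to 5 and were 1 with windows of 2.5 kb and 1 when centred, and those lower (4) ranged from 4 to 8 and were 2 in equal-length lists. With depletion, H3K27me3 genes higher (0) ranged from 0 to 3 and were 1 in equal-length lists, 1 with windows of 2.5 kb and 3 when centred, and those lower (5) ranged from 5 to 10 and were 3 with windows of 2.5 kb and 2 when centred. The cause was not tested. H3K27ac libraries could not be centred because the median of siPHF13+TGFβ replicate 1 was 0 bp.

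Over all windows, limma calls in H3K4me3 with TGFβ (24) were 3 in equal-length lists, 1 by rank, 9 when centred, 0 with a pseudocount of 500 bp, 10 with no filter, 2 on 4 libraries and 15 with windows of 2.5 kb, and ranged from 0 to 18 with 1 library left out. With depletion (27) they were 3, 3, 10, 0, 19, 27 and 16, and ranged from 0 to 43. For H3K27me3 with no filter, 19 windows were called with TGFβ and 3 with depletion, and for H3K27ac with depletion without siPHF13+TGFβ replicate 2, 9158. With the replicate block, limma called 0 of the 42 genes in every mark and comparison and 0 of all windows. The correlations of same-numbered deviations ranged from −0.415 to 0.515. With 2 libraries per group they cannot settle whether replicate numbers pair the libraries. Shared bp of 2 marks were taken from lists matched by group and replicate number. Peak lists without read counts limit what any difference in covered bp can show.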
